A study of Sus scrofa with 4 samples.

Results

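The genes described here are the ABC transporter genes (families ABCA to ABCG) and the organic ion transporter genes (SLCO, SLC10A, SLC22A, SLC47A and SLC51) of the pig. They were chosen by symbol alone from the protein-coding genes of the RefSeq annotation of Sscrofa11.1, and the canalicular genes ABCB4, ABCB11 and ABCC2 were left out. This gave 75 genes of 16527 named coding genes, and 74 of them lie on chromosomes 1 to 18, X or Y. ABCA2 lies on an unplaced sequence and was not analysed further, and the annotation used held no SLC47A gene. The study mapped lactylation of histone H4 at lysine 12 (H4K12la) in the liver of sows in late gestation, comparing sows with high bile acids with sows labelled low in the sample titles and normal in the design text. Each group had 1 immunoprecipitated and 1 input library, 4 samples in all, labelled as female hepatocytes; whether a library was made from 1 animal or a pool, and the strain and age, are not stated in the labels. The deposited data are 1 list of called peaks for each immunoprecipitated library. With 1 library per group there is no replicate check of any difference between the groups, and no test between them was made.

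Transporters of the sinusoidal membrane take bile acids, drugs and organic ions from the blood into the hepatocyte or return them to it, while those of the canalicular membrane pump them into bile. ABC transporters spend ATP on export or on moving lipids across a membrane, and SLC and SLCO carriers use existing gradients. In cholestasis, the basolateral exporters are known to act as a route by which bile acids leave the cell when flow into bile is impaired. H4K12la is a histone mark derived from lactate. The roles given below are known mainly from human and rodent work.

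Positions were counted by the summit of a peak. A gene-end peak lies within 1 kb of either end of a gene, a body peak between its start and end, and a 10 kb peak in the gene or up to 10 kb outside it. The reference gives no strand, so the end with the start site was not told apart from the other end. Fold is the enrichment that the authors' caller gave each summit relative to its local background. The value q is the caller's adjusted p-value for a peak in its own library. The lists hold 28283 peaks (high) and 5735 peaks (low), and a count in the high list is read against the share of all genes in that list. The median peak rested on 9 and 10 fragments at the summit, and 608 and 13 peaks had q below 0.05. The 15 hepatocyte marker genes gave 16 placed entries, because TF is annotated at more than 1 position. Of these 16 entries, 8 had a high-list and 1 a low-list peak within 10 kb. TTR had the 1 gene-end peak, in the high list, and ALB had none within 10 kb. Of 5 cholangiocyte marker genes 1 had a high-list and 1 a low-list peak within 10 kb, and of 5 Kupffer cell marker genes 2 and 1. For each of the marker lists the exact intervals hold the shares of all genes. Peaks of a histone mark do not show a cell type, so the hepatocyte label was not checked further.

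Peaks at the transporter genes came close to the share found over all coding genes. Gene-end peaks of the high list were called at 11 of the 74 genes (14.9%; Clopper-Pearson 95% interval 7.66 to 25.0%), where 16.5% of all 16320 placed coding genes had one. In the low list none did (0 to 4.86%), where 3.13% of all genes had one. Body peaks lay in 38 genes of the high list (51.4%; 39.4 to 63.1%) against 44.5% of all genes, and in 14 genes of the low list (18.9%; 10.7 to 29.7%) against 14.9%. Within 10 kb, 50 genes had a high-list peak (67.6%; 55.7 to 78.0%) against 62.5%, and 19 had a low-list peak (25.7%; 16.2 to 37.2%) against 21.9%. Each of these 6 intervals holds the share of all genes. The 323 other SLC genes had similar values, with 17.6% for gene-end and 48.9% for body peaks in the high list. Intervals cover counting error only.

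**Figure D1:**
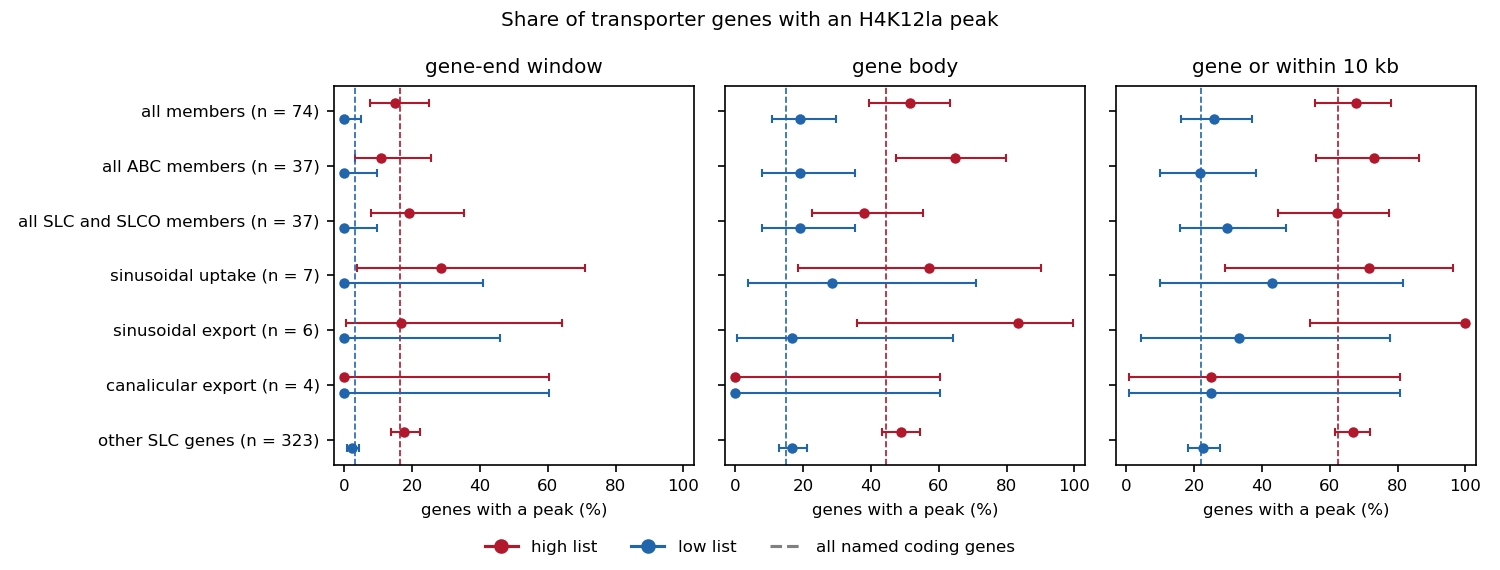
Share of genes (%) with a peak at a gene end, in the gene body, or in the gene or within 10 kb, for the transporter lists and for other SLC genes; red is the high list, blue the low list, bars are Clopper-Pearson 95% intervals and dashed lines are the shares over all named coding genes. For all 74 placed transporter genes the high-list shares of 14.9, 51.4 and 67.6% lie near the dashed lines at 16.5, 44.5 and 62.5%.

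Sinusoidal uptake carriers were marked most at SLCO2B1, while SLC10A1 was called in the low list alone. Of 9 listed carriers 7 were placed, and SLCO1B1 and SLC22A9 had no placed entry under those symbols. At gene ends the high list called 2 of the 7, and the low list called none. Body peaks were called in 4 and 2, and 10 kb peaks at 5 and 3. The exact intervals of all these shares, such as 18.4 to 90.1% for high-list body peaks, hold the shares of all genes (16.5 and 3.13%, 44.5 and 14.9%, 62.5 and 21.9%).

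SLCO2B1 encodes OATP2B1, a carrier of steroid sulphates and many drugs, and lies at chromosome 9, 9433978 to 9474248. It had 5 high-list peaks and no low-list peak within 10 kb. Folds were 3.25 and 4.23 outside the gene, the latter 1.74 kb from its lower-coordinate end at 9432020 to 9432462 with q 0.0316, and 3.94, 3.17 and 2.50 inside it. The row of 5 summits runs from 5.74 kb outside the gene to 20.2 kb inside it. A provisional gene, LOC102160367, overlaps the summits of the peaks of fold 4.23 and 3.94. SLC10A1 encodes NTCP, the sodium-dependent carrier that takes conjugated bile acids from the blood. Its low-list peaks had folds of 3.27, inside the gene and 2.75 kb from an end, and 2.68, outside it. The nearest high-list summit lay 99.8 kb away. The stronger low-list peak rested on 11 fragments, or 9.69 (4.83 to 17.3) once multiplied by the caller's factor for that library, and 6 would have been enough for a call in the high library over the same expected number. That interval holds 6, so the missing call does not show a difference at SLC10A1.

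SLC22A3 encodes the organic cation carrier OCT3 and had 3 high-list peaks, of fold 3.02, 2.68 and 2.56, the last a gene-end peak just outside the gene. It had no low-list peak within 10 kb. SLC22A7 encodes the organic anion carrier OAT2 and had a gene-end peak of fold 3.01 (q 0.294) in the high list, at chromosome 7, 38335232 to 38335769. That summit lies inside the neighbouring gene CRIP3, so it cannot be given to SLC22A7 alone. A low-list peak of fold 2.53 lay 5.99 kb outside SLC22A7. SLCO1A2, which encodes OATP1A2, had 1 internal peak in each list, of fold 2.86 (high) and 2.68 (low), 10.8 kb apart at their nearest edges; the low-list summit also lies in IAPP. SLCO1B3, which encodes a liver carrier of bile acids and bilirubin conjugates, had none within 10 kb, and its nearest summits lay 75.5 kb (high) and 86.9 kb (low) away.

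All 6 sinusoidal export genes had a high-list peak within 10 kb, and 2 had a low-list peak. The high list called body peaks in 5 of the 6 (83.3%; 35.9 to 99.6%), the low list in 1. All genes had 44.5% (high) and 14.9% (low) for body peaks, and 62.5 and 21.9% for 10 kb peaks. These shares lie inside the intervals, which for high-list 10 kb peaks was 54.1 to 100%. The only gene-end peak was that of SLC51B.

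SLC51A and SLC51B encode the subunits of the basolateral bile acid exporter OST. The SLC51B gene-end peak, at chromosome 1, 163088319 to 163088810, had a fold of 3.37 (q 0.168) from 10 fragments (4.80 to 18.4) over 2.27 expected. An end of RASL12 lies within 1 kb of the same summit, and a further high-list peak of fold 2.73 lay 3.14 kb outside SLC51B, within RASL12. SLC51A was called only outside the gene. Its flanking peaks had folds of 3.36 and 2.89 (high) and 3.11 (low), and those of 2.89 and 3.11 lay 0.788 kb apart, the closest approach of the lists at any transporter gene. Their summits are inside PCYT1A (fold 3.36) and ZDHHC19 (the others). The lists thus called neighbouring but separate positions beside SLC51A.

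ABCC3, ABCC4 and ABCC6 belong to the multidrug resistance protein family of the basolateral membrane. ABCC3, which encodes MRP3, an exporter of conjugated bile acids and glucuronides, had 1 internal high-list peak of fold 2.98 (q 0.303). ABCC4 encodes MRP4, which exports bile acids together with glutathione. It had 3 internal high-list peaks of fold 2.68, 3.01 and 2.35 and 1 internal low-list peak of fold 3.27, in a gene of 220.7 kb. ABCC6, needed for release of ATP from hepatocytes, had an internal high-list peak of fold 3.52 (q 0.139) and shared a flanking peak of fold 2.21 with its neighbour ABCC1. ABCA1 passes cholesterol and phospholipid to apolipoprotein A-I. It had 5 high-list peaks, all inside the gene and up to 55.4 kb from its nearer end, with folds of 2.86, 3.42, 2.86, 3.02 and 2.47 along the chromosome. The low list had no peak within 10 kb of ABCA1, ABCC3, ABCC6 or SLC51B, and its nearest summit to ABCA1 lay 53.2 kb away.

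None of the 4 placed canalicular export genes counted here had a gene-end or body peak in either list. ABCB4, ABCB11 and ABCC2, left out of the set, did have such peaks. ABCB4 had 2 gene-end and 3 body peaks in the high list, the strongest of fold 4.70 (q 0.0106). ABCB11 had 1 body peak in each list, of fold 2.34 (high) and 3.64 (low), and ABCC2 had 1 in the high list. The strongest peak of ABCB11, of fold 4.27 (q 0.031) in the high list, lay 2.85 kb outside the gene. By the exact interval, 0 of 4 genes allows a share of up to 60.2%, which holds the 16.5 and 44.5% of all genes in the high list. ABCG2, which encodes the breast cancer resistance protein, had a high-list peak of fold 2.71 that lay 5.74 kb outside the gene, within a provisional gene. ABCG8 had a low-list peak of fold 3.21 at 7.34 kb outside it, inside LRPPRC. ABCG5, whose product forms the sterol exporter with that of ABCG8, and ABCB1, which encodes the drug pump P-glycoprotein, had none within 10 kb. Their nearest high-list summits lay 14.1 and 13.6 kb away. The 59.9 kb spanned by ABCG8 and ABCG5 held no summit of either list.

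**Figure D2:**
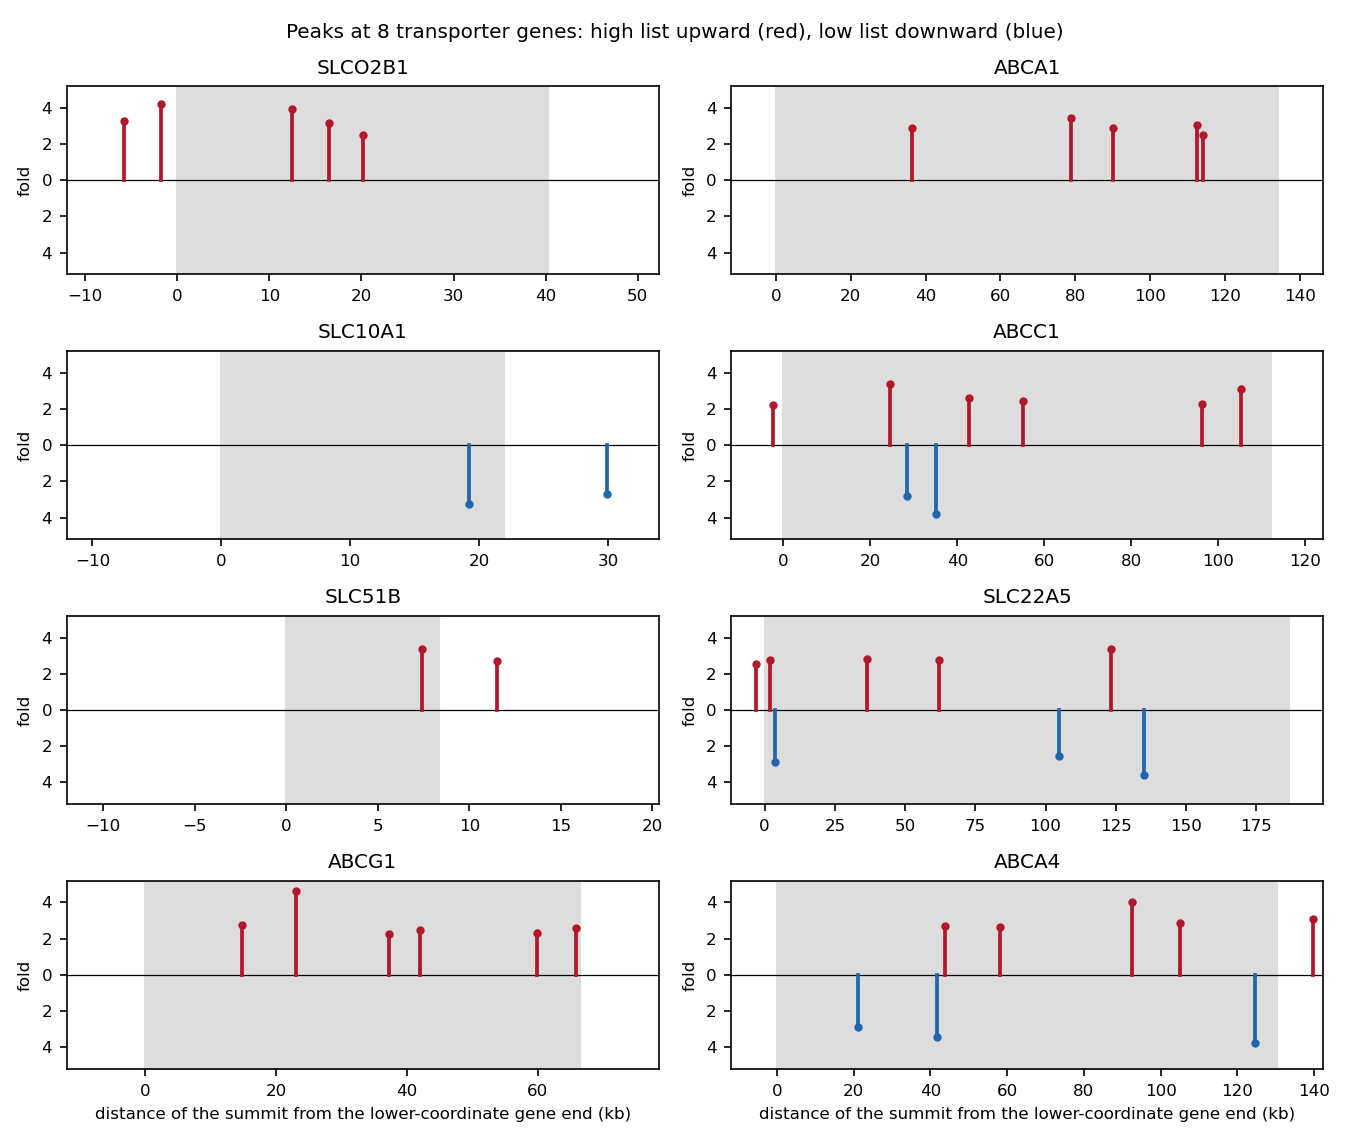
Position and fold of each peak at 8 transporter genes: the x axis gives the distance of the summit from the lower-coordinate end of the gene in kb, grey is the gene, and the length of a line is the fold, drawn upward for the high list and downward for the low list. SLCO2B1, SLC51B, ABCG1 and ABCA1 have only high-list peaks, SLC10A1 only low-list peaks, and at ABCC1, SLC22A5 and ABCA4 both lists have peaks at separate positions.

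The 11 genes with a high-list gene-end peak carried 12 such peaks, with folds of 2.24 to 3.69 and no q below 0.05. ABCE1, which encodes a ribosome recycling factor with no membrane domain, had the highest fold, 3.69 (q 0.139; 10 fragments over 1.98 expected), at chromosome 8, 83352639 to 83353069. ABCA7, a lipid transporter gene at chromosome 2, 77357161 to 77375349, was the only one with a peak at both ends. These had folds of 2.82 (9 fragments), 0.008 kb from the lower-coordinate end, and 3.64 (13 fragments; q 0.0735), 0.369 kb from the other. SLC22A23, an orphan carrier gene, had 3.12 at 0.247 kb outside the gene, and SLCO2A1, the prostaglandin transporter gene, had 3.12 at 0.696 kb inside it. SLC10A4, an orphan carrier gene of synaptic vesicles, had 2.98. ABCB9, which encodes a lysosomal peptide transporter, had 2.84, and ABCG1, which encodes a cholesterol exporter to high-density lipoprotein, 2.60. SLC10A2 encodes ASBT, the apical bile acid carrier of ileum and bile duct cells, and had the lowest fold, 2.24 from 6 fragments.

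Some of these gene-end peaks were shared with neighbours. In 7 of the 12 the summit also lay within 1 kb of an end of another annotated gene. The same share was not counted over all coding genes, so it is not read as a trait of transporter genes. The neighbours were OGFOD2 at ABCB9, ANAPC10 at ABCE1, ZAR1 at SLC10A4, PSMG4 at SLC22A23, CRIP3 at SLC22A7, RASL12 at SLC51B and LOC106508794 at SLC22A3. The peaks with no other gene end within 1 kb were those of ABCA7, ABCG1, SLC10A2 and SLCO2A1. The median of the strongest gene-end fold was 3.01 for the transporter genes and 3.01 for all 2693 genes with such a peak.

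**Figure D3:**
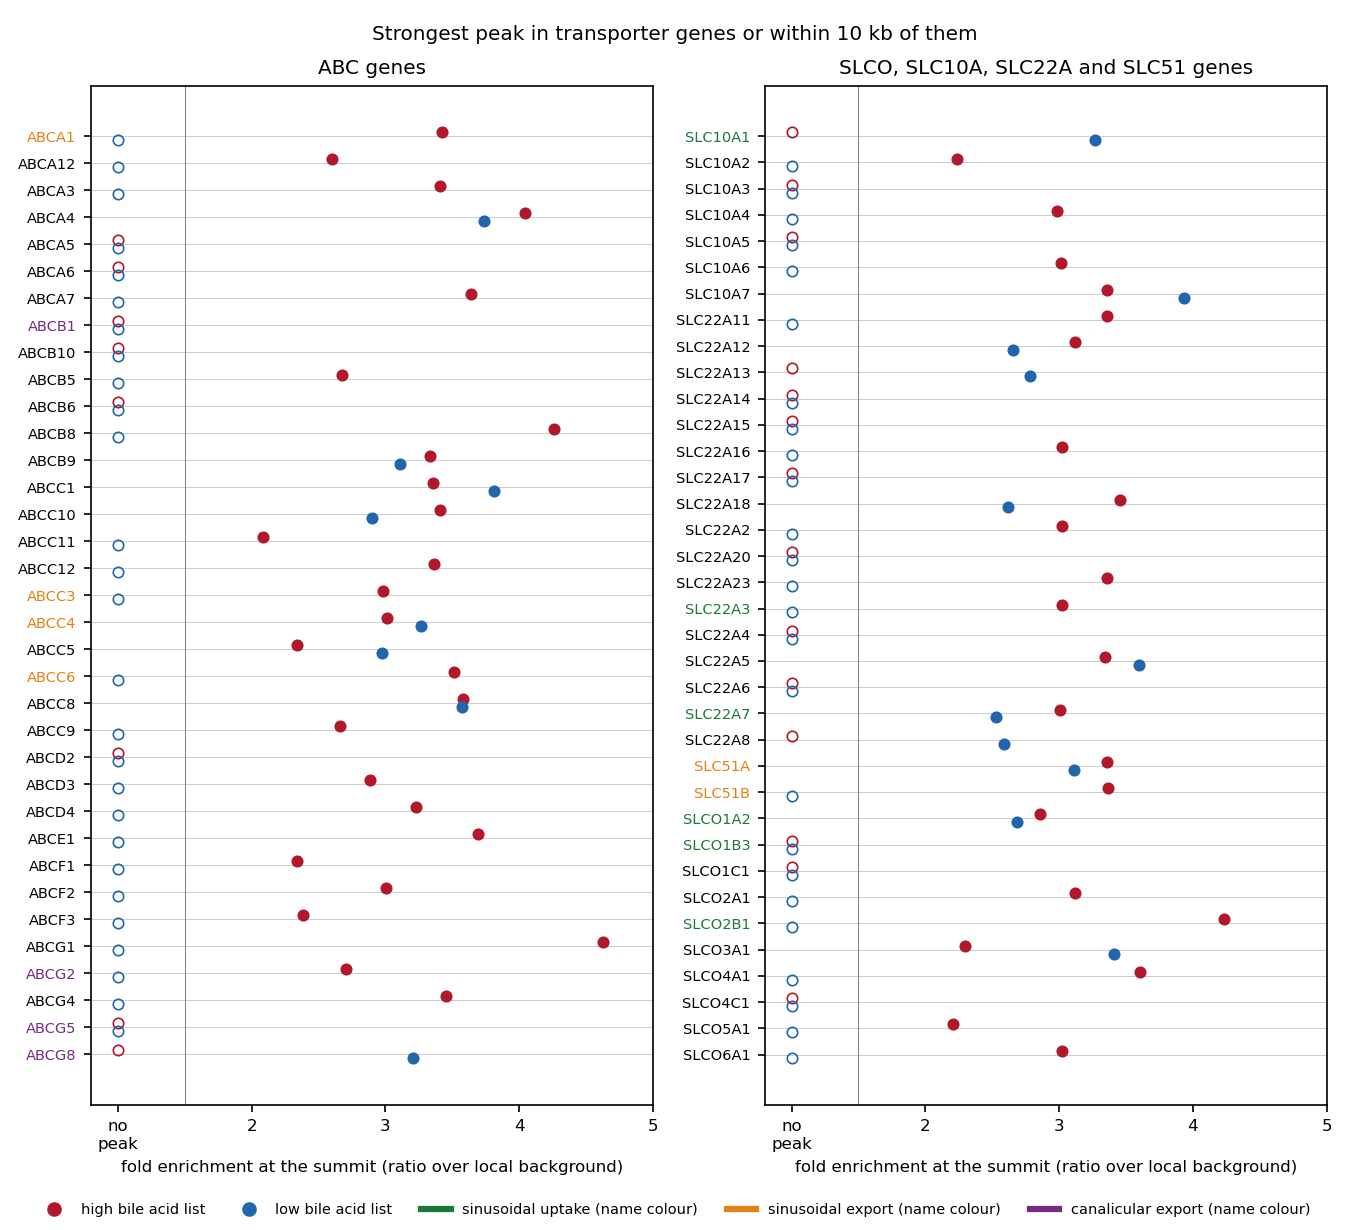
Strongest fold in placed transporter genes or within 10 kb of them, without a few genes that are not reported here, with ABC genes on the left and the other carriers on the right; red is the high list, blue the low list, open circles at the left mean that no peak was called, and the colour of a name gives its membrane list. The highest values are 4.63 for ABCG1, 4.26 for ABCB8 and 4.23 for SLCO2B1 in the high list, and 3.93 for SLC10A7 in the low list.

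Among ABC genes, the C family was called throughout. The high list called body peaks in all 10 ABCC genes (69.2 to 100%) and the low list in 5 (18.7 to 81.3%), where all genes had 44.5 and 14.9%. No allowance was made for the number of families counted. ABCC genes held 20.03 and 6.01 body peaks per Mb of gene against 14.6 and 2.88 over all coding genes. None of the 10 had a gene-end peak. Their median length was 91.3 kb against 25.6 kb for all genes. Of all genes of 50 to 100 kb, 57.1% had a high-list and 18.7% a low-list body peak. ABCC1, ABCC4 and ABCC9 are longer than 100 kb, a class in which 78.6 and 41.0% of all genes had one. ABCC10, of 19.97 kb, is in the class under 20 kb, where the shares were 26.3 and 4.87%. The part of length in the ABCC calls was not tested. ABCC1, which encodes MRP1, an exporter of glutathione conjugates, had 6 high-list peaks with folds of 2.21 to 3.36 and low-list peaks of fold 2.80 and 3.81. ABCC8, the sulphonylurea receptor gene of the pancreatic potassium channel, had high-list folds of 3.31 and 3.58 and a low-list fold of 3.58. ABCC10 had 3.41 and 2.90 in the high and low list, and ABCC5, which encodes an exporter of cyclic nucleotides, 2.34 and 2.98. Of 7 ABCA genes, 5 had a high-list body peak (29.0 to 96.3%), and that interval holds the 44.5% of all genes. ABCA4, a retinoid flippase gene of the retina, had 4 internal peaks in the high list, the strongest of fold 4.04 (q 0.0349), and 3 in the low list, the strongest of fold 3.74. ABCA5 and ABCA6, adjacent on chromosome 12, had none within 10 kb.

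The B and D families include, besides P-glycoprotein, transporters of mitochondria, lysosomes and peroxisomes. Body peaks of the high list lay in 2 of 7 ABCB genes (3.67 to 71.0%) and 1 of 4 ABCD genes (0.631 to 80.6%), and both intervals hold the 44.5% of all genes. ABCB8, a mitochondrial transporter gene, had the second highest fold, 4.26 (q 0.0179), but 8.19 kb outside the gene and inside ATG9B. ABCD4, needed for lysosomal release of cobalamin, had 3 internal peaks of fold 2.63, 3.23 and 3.12 in a gene of 17.5 kb, and flanking peaks of 2.29 and 2.60. ABCB6, ABCB10 and ABCD2 had none within 10 kb. The ABCE and ABCF genes, whose products act on ribosomes and not as transporters, each had a high-list body peak and no low-list peak. For these 4 genes the high-list interval, 39.8 to 100%, also holds the 44.5% of all genes. ABCG1 held 6 high-list peaks in 66.5 kb and none in the low list. Its strongest, at chromosome 13, 205584348 to 205585075, had a fold of 4.63 and q of 0.0081 from 14 fragments (7.65 to 23.5) over 2.24 expected. It ranked 71st of the high list by p and was 728 bp wide, and the widest peak near any transporter gene, of 856 bp, lay in the same gene.

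Among the other carriers, SLC22A5 and SLC22A23 had the most peaks. SLC22A5 encodes the carnitine carrier OCTN2, and its annotated span at chromosome 2, 134660741 to 134847575, held 4 high-list peaks with folds of 2.75 to 3.35, with a further one of 2.53 lying 3.17 kb outside it, and 3 low-list peaks of fold 2.89, 2.55 and 3.601. The nearest pair, near the lower-coordinate end, lay 1.33 kb apart. The high-list peak of fold 3.35 lay within 1 kb of an end of IRF1. SLC22A4, its neighbour, had none within 10 kb. SLC22A23 had 7 high-list peaks with folds of 2.08 to 3.36, and no low-list peak. Of 18 SLC22A genes, the high list called 4 in the body (22.2%; 6.41 to 47.6%) and 10 within 10 kb (55.6%; 30.8 to 78.5%), where all genes had 44.5 and 62.5%. The low list called 3 and 6 (16.7 and 33.3%), where all genes had 14.9 and 21.9%. SLC22A6, which encodes the renal anion carrier OAT1, had none within 10 kb, and SLC22A8, which encodes OAT3, had 1 flanking low-list peak of fold 2.59. SLC22A12, the urate carrier gene URAT1, had flanking peaks of fold 3.12 (high) and 2.66 (low).

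Of 10 SLCO genes, 7 had a high-list body peak (34.8 to 93.3%) and 2 a low-list body peak (2.52 to 55.6%), and these intervals hold the 44.5 and 14.9% of all genes. SLCO4A1, a thyroid hormone carrier gene, had internal folds of 2.29 and 3.61 (q 0.0913), and SLCO3A1, of 325.4 kb, had 1 internal peak in each list, of 2.29 (high) and 3.41 (low). The run of SLCO1A2, SLCO1B3 and SLCO1C1 on chromosome 5 spans 295 kb and held 1 peak of each list. Of 7 SLC10A genes, each list called body peaks in 2 (3.67 to 71.0%), an interval that holds the 44.5 and 14.9% of all genes. SLC10A7, which is needed for glycosylation and calcium balance and is not known as a bile acid carrier, had the highest low-list fold of any transporter gene, 3.93 (12 fragments; q 1), and a high-list fold of 3.36. SLC10A6, a steroid sulphate carrier gene, had high-list folds of 3.01 and 2.68, at summits that also lie in C8H4orf36. How reads with several matches were placed is not stated in the labels.

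No peak was called in either list within 10 kb of 20 of the 74 genes, while 35 were called in the high list alone, 15 in both and 4 in the low list alone. Over all 16320 genes these classes held 5243, 7505, 2692 and 880. The 4 were SLC10A1, ABCG8, SLC22A8 and SLC22A13. For the 17 of the 20 that lie on autosomes, the nearest high-list summit lay 11.85 to 127 kb from the gene, with a median of 24.4 kb. The other 3 are all of the placed transporter genes on chromosome X. That chromosome held 53 high-list and 4 low-list peaks in all, where chromosome 18, the autosome with the fewest, held 761 and 154. At none of the 15 genes called in both lists did a high-list peak overlap a low-list peak by 1 bp or more. Over the whole lists, 207 of 28283 high-list and 208 of 5735 low-list peaks overlapped the other list. The transporter genes had 112 high-list and 25 low-list peaks within 10 kb. Overlap was thus rare in the whole lists too, and its absence is not read as a trait of transporter genes. Overlaps were not counted for the 2692 genes called in both lists.

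**Figure D4:**
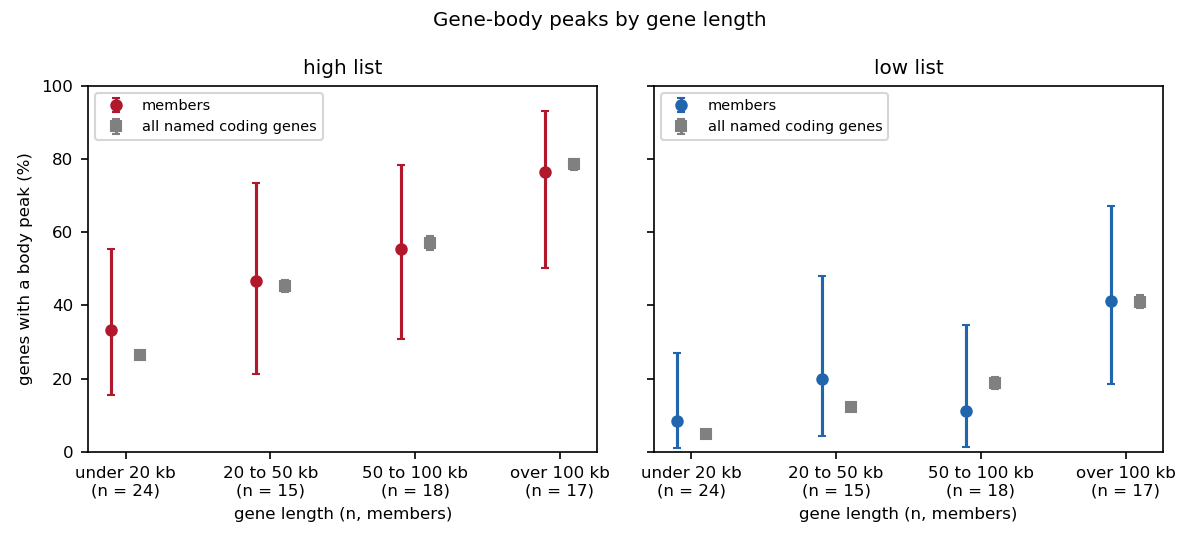
Share of genes (%) with a body peak in 4 classes of gene length, for transporter genes (coloured) and all named coding genes (grey), with Clopper-Pearson 95% intervals; n is the number of transporter genes. The share rises with length in the high list from 33.3 to 76.5% for the transporter genes and from 26.3 to 78.6% for all genes.

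Transporter genes are longer than most, with a median of 44.1 kb, and high-list body calls were more frequent in longer classes. In the high list, 33.3% of those under 20 kb, 46.7% of those of 20 to 50 kb, 55.6% of those of 50 to 100 kb and 76.5% of those over 100 kb had a body peak. Over all genes these shares were 26.3, 45.3, 57.1 and 78.6%, each inside the interval of the transporter genes. In the low list 2 of 24, 3 of 15, 2 of 18 and 7 of 17 genes of these classes had a body peak, without a steady order, where all genes had 4.87, 12.1, 18.7 and 41.0%. Per Mb of gene, transporter genes held 15.9 high-list and 3.81 low-list body peaks against 14.6 and 2.88. Sinusoidal uptake genes held 18.6 and 5.30 per Mb, and sinusoidal export genes 20.6 and 1.87, from 7 and 2 peaks and from 11 and 1 peaks respectively. The difference between uptake and export was not tested, and rests on these few peaks.

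Most peaks near transporter genes were weak. Of the 112 in the high list, 4 had q below 0.05, at ABCG1, ABCB8, SLCO2B1 and ABCA4. That is 4 of 74 genes (5.41%) with such a peak within 10 kb, against 3.58% of all genes. In the low list all 25 had a q of 1, and 0.0613% of all genes had a peak with q below 0.05. Median folds of these peaks were 2.86 (high) and 2.98 (low), against 2.90 and 2.98 for the whole lists. Their summits held 6 to 14 fragments in the high and 8 to 13 in the low list.

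A peak in 1 list only is a difference in calls. To see how far the counts themselves go, the 95% Poisson interval of each summit was set beside a limit, the smallest number of fragments that would pass p of 0.01 in the other library given the same expected number. Counts of the low library were multiplied by 0.8805, the factor recovered from its list. For 3 of 112 high-list peaks (2.68%) the interval lay at or above that number, close to the 2.22% of the whole list. They were the strongest peaks of ABCG1 (interval from 7.65, limit 6.16), ABCB8 (from 7.65, limit 7.04) and SLCO2B1 (from 6.20, limit 6.16). For none of the 25 low-list peaks did it, where 2.23% of the low list did. Without that multiplication, the peak of ABCG1 and 4 low-list peaks met the limit, those of ABCA4, ABCC1, SLC10A7 and SLC22A5. These are 0.893 and 16.0% of the peaks near transporter genes, against 0.325 and 7.10% of the whole lists. Every peak entered because its own list called it, and the libraries are unreplicated, so meeting the limit does not show a difference between the groups, and a missing call does not either.

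**Figure D5:**
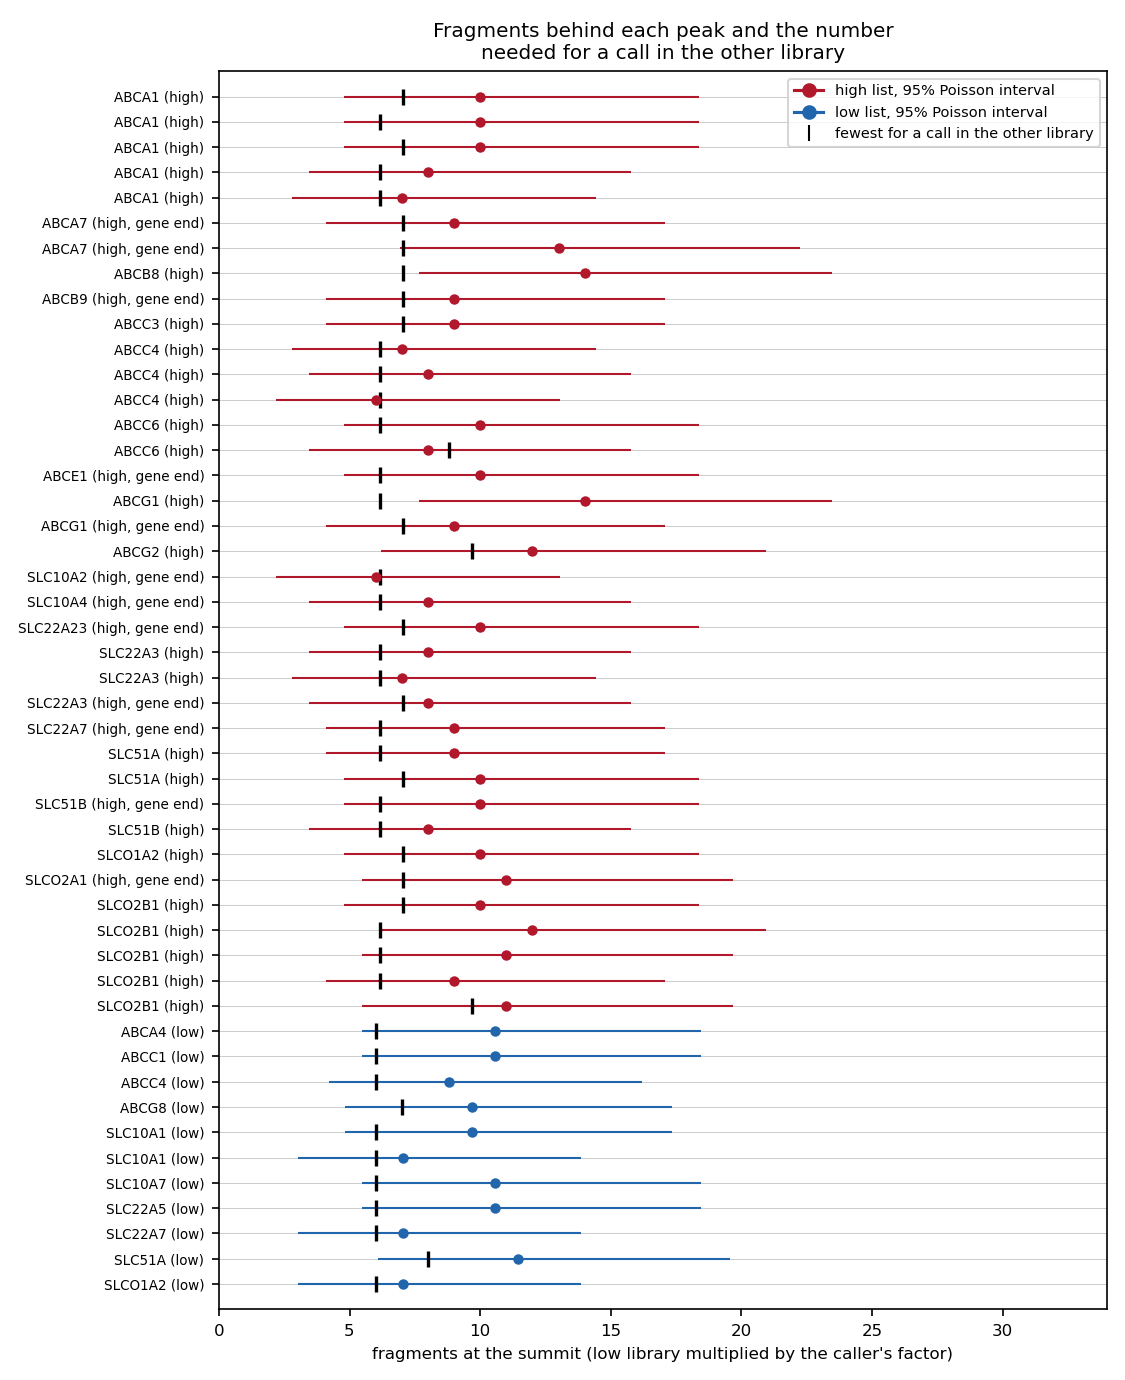
Fragments at the summit, with 95% Poisson intervals, of gene-end peaks, of peaks at the liver membrane transporters and of peaks that met the limit under either setting; red is the high list, blue the low list (multiplied by 0.8805), and black ticks are the limit for a call in the other library. Most ticks fall inside the interval, and those of the strongest high-list peaks of ABCG1, ABCB8 and SLCO2B1 fall below it.

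Other genes of bile transport and its regulation, among them ABCB4, ABCB11 and ABCC2, were counted from a separate list. Of 27 placed genes, the high list called 6 at a gene end, 16 in the body and 20 within 10 kb. The low list called 0, 10 and 13. The high-list shares of 22.2, 59.3 and 74.1% have intervals that hold the 16.5, 44.5 and 62.5% of all genes. The low-list shares were 37.0% (19.4 to 57.6%) for body and 48.1% (28.7 to 68.1%) for 10 kb peaks, where all genes had 14.9 and 21.9%. These 2 intervals lie above the shares of all genes. The median length of the 27 genes was 48.7 kb against 25.6 kb for all genes, and the part of length was not tested. RXRA, the common partner of the nuclear receptors that control transporters, held 17 high-list and 6 low-list peaks, the strongest with a fold of 5.03 (q 0.00241). ATP7B, the copper exporter gene, had a high-list fold of 4.51 (q 0.0106), and ATP8B1, the canalicular phosphatidylserine flippase gene, 3.36. No peak of either list lay within 10 kb of 6 of the 27 genes. They were the nuclear receptor genes NR1H4, NR0B2, NR1I3 and NR1H2, and PDZK1 and RDX. Of the ABC genes under other symbols, TAP1 and TAP2 are peptide transporter genes of antigen presentation. They lie close together and shared their peaks within 10 kb, 2 of the high list and 1 of the low list. The high-list summit of fold 2.70 lies between them, inside PSMB8. The chloride channel gene CFTR had none within 10 kb.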

How the data were processed

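The submitters' processing notes name MACS2 2.1.0, Bowtie 1.1.2, Trimmomatic 0.33 and bcl2fastq 2.17, and the builds Sscrofa11.1 and hg38; pig coordinates were used. In the deposited narrow peak lists the fold (ratio over background), the −log10 p-value and the −log10 q-value are the authors' values. The deposited score was 10 times the −log10 p-value with decimals dropped and was not used. Each immunoprecipitated library has a peak list of its own, and no p-value in either exceeded 0.00989.

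Gene positions are those of RefSeq on Sscrofa11.1, without LOC names. The fragment and expected numbers were solved from fold and p-value; whole numbers fitted 99.997% (high) and 99.948% (low) of peaks within 0.002 in −log10 p. The solver and the gene counts were tested on simulated data. All counts were made with Python 3.11.15 and scipy 1.17.1. Genes named were the liver membrane lists, every gene with a gene-end peak, those of most peaks and the 3 strongest per list; others were chosen after their values were seen. Replicates were numbered in accession order. The genes and lists were chosen with earlier results of these data known. No genome sequence was used here, and a few genes are counted but not reported by name.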

Additional observations from a re-analysis of the deposited data

How the results depend on the processing

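No paired analysis was possible because the values come from no test and there is 1 immunoprecipitated library in a group. Of the alternatives, leaving out body peaks that also lie in another named coding gene and multiplying the intervals by the caller's factor were chosen after the data were seen. At q below 0.05, the genes with a gene-end, body and 10 kb peak fell from 11, 38 and 50 to 0, 2 and 4 in the high list. In the low list they went from 0, 14 and 19 to 0, 0 and 0. Of all genes, 0.735, 2.11 and 3.58% had such peaks in the high list, and 0, 0.0306 and 0.0613% in the low list. With as many high-list peaks as the low list has, the counts were 3, 15 and 18, against 0, 14 and 19 in the low list, and all genes had 4.63, 15.8 and 23.9%. These falls come with the shorter lists. With gene-end windows of 500 bp and 3 kb, 4 and 21 genes had a high-list peak (9.28 and 30.3% of all genes), and 0 and 2 a low-list peak (1.62 and 6.36% of all genes). Counts stayed within 1.5 times with peaks of p of 0.001 or smaller, with any overlap in place of the summit, with ABCB4, ABCB11 and ABCC2 added, without ABCE and ABCF genes and without peaks inside other genes, and no overlap of the lists appeared with summits within 500 bp. The planned count at the start-site end was not run, because the reference used here gives no strand. The low number of fragments per summit limits every comparison between the lists.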
